A study of Mus musculus with 12 samples.

Results

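The 6 genes described here, Mcpt8, Prss34, Cpa3, Fcer1a, Ms4a2 and Gata2, are markers of basophils and mast cells, and they were chosen by name from a table of 49315 genes. They were followed in RNASeq of T cells isolated by magnetic negative selection from mouse spleens, with 1 library per mouse. The mice were male and 12 weeks old when infusion began. WT (miR-214+/+) and miR-214-/- mice received Ang II (angiotensin II, a peptide hormone that raises blood pressure) at 490 ng/kg per day or sham infusion of its vehicle through osmotic minipumps for 14 days, with 3 mice in each of 4 groups. The study's resources list gives the knockout on a mixed S129/C57 background. The paper names WT littermates for its fibrosis experiments, and its RNASeq text does not give the source of the WT mice. A difference of background between the genotypes could therefore not be checked. The deletion is present in the whole animal, so in miR-214-/- mice no cell type in the spleen carries miR-214.

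Basophils and mast cells are granulocytes that carry the high-affinity receptor for IgE. Cross-linking of bound IgE by antigen makes them release histamine, granule proteases and cytokines, among them the T helper 2 cytokine IL-4. Basophils mature in the bone marrow and circulate in blood and spleen, whereas mast cells leave the marrow as precursors and mature in tissues, and both lineages require the transcription factor GATA2. Neither cell type is a T cell, and magnetic negative selection removes unwanted cells by antibodies to their surface proteins.

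The members cover 3 roles. Mcpt8, Prss34 and Cpa3 encode enzymes stored in granules, Fcer1a and Ms4a2 encode the alpha and beta subunits of the IgE receptor, and Gata2 encodes the transcription factor. In GRCm38 each is a protein-coding gene on a chromosome of its own. Mcpt8 (ENSMUSG00000022157) lies on chromosome 14 from 56082166 to 56085273, Prss34 (ENSMUSG00000056399) on chromosome 17 from 25298394 to 25300165, and Cpa3 (ENSMUSG00000001865) on chromosome 3 from 20215620 to 20242181. Fcer1a (ENSMUSG00000005339) lies on chromosome 1 from 173221284 to 173227214, Ms4a2 (ENSMUSG00000024680) on chromosome 19 from 11615523 to 11623719, and Gata2 (ENSMUSG00000015053) on chromosome 6 from 88193891 to 88207032.

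The 300 bases around each annotated start (250 before it and 50 after it) were searched on both strands. The letters sought were AGATAA or TGATAA, which GATA factors bind. RefSeq (GRCm38.p6) gave 7 such windows for the 6 members, with 2 for Gata2. GATA letters were found in 4 of the 7 windows and in 18.6% of all 32851 windows of the same length. No test was made of this difference. For Prss34 the GATA letters began 31 bases before the start and for Cpa3 46 bases before it. For Fcer1a they began 92 bases before it, on the opposite strand. The window of Ms4a2 held 3 matches, at 224 and 37 bases before the start on the opposite strand and at 11 bases before it. Mcpt8 and both Gata2 windows held none, which says only that these letters are not in those windows. The 250 bases before the start of the 4 genes with a match are shown 5′ to 3′ on the strand of the gene, with the GATA letters (TTATCT where they lie on the opposite strand) in capitals. Prss34 is shown from chr17:25298144-25298393 on the plus strand, and the others, from the minus strand, are Cpa3 from chr3:20242182-20242431, Fcer1a from chr1:173227230-173227479 and Ms4a2 from chr19:11623720-11623969.
Prss34: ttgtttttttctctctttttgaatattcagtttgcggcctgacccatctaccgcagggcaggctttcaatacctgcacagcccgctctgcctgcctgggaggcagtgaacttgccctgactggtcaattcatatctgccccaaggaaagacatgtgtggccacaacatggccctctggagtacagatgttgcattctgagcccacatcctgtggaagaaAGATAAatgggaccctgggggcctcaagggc
Cpa3: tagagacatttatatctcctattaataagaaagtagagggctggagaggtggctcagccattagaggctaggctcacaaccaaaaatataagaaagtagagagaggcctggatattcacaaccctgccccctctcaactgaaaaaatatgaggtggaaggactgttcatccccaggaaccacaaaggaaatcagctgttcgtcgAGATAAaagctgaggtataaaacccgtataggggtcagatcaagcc
Fcer1a: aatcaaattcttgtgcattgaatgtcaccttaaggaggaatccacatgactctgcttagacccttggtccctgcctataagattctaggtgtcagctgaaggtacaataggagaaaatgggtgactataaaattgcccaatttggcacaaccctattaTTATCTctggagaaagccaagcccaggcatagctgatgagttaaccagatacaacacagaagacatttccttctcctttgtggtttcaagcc
Ms4a2: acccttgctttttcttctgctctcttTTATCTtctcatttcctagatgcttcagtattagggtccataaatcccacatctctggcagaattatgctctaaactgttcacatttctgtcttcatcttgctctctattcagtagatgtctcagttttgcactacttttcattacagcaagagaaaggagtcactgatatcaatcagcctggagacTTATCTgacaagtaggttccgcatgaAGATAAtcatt

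In the same windows the E-box letters CANNTG, bound by basic helix-loop-helix factors, were in 5 of 7 member windows and in 72.3% of all windows. The letters TTNNGNAA, a form bound by C/EBP factors, were in 2 of 7 member windows, Fcer1a and 1 window of Gata2, and in 40.7% of all windows. In the member windows no match to 1 motif overlapped a match to another, and each match is a description of sequence alone.

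Between 21126874 and 29605988 reads per library were assigned to genes. Mir214, the deleted gene, had 0 counts in all 12 libraries and its host transcript Dnm3os had 1 count in total, so these poly(A) libraries could not check the genotype labels. T cell markers were present in every library, with a summed level of 12 of them between 3409 and 6046 CPM (read counts over library size, scaled by the TMM method of edgeR) and that of 8 B cell markers between 52.9 and 452 CPM. Transcripts of other cells were abundant too. In WT Ang II replicate 1, red-cell precursor markers, a list that includes globin genes, summed to 5748 CPM, above its T cell marker sum of 4222 CPM. Neutrophil markers summed to 3479 CPM in that library, below its T cell marker sum. In miR-214-/- Ang II replicate 2, red-cell precursor markers summed to 4701 CPM, below its T cell marker sum of 5369 CPM. The T cell marker sums were 3409 to 4222 CPM in WT Ang II and 5130 to 6046 CPM in WT sham. In miR-214-/- they were 3907 to 5369 CPM after Ang II and 4597 to 5450 CPM after sham. In WT all 12 T cell markers were lower in each Ang II library than in each sham library. The share of all genes that lay apart in that direction is not given here. None of the 12 met both criteria for a call, and 8 had an adjusted p under 0.05. Since these are bulk samples, more cells of a type and more RNA per cell cannot be told apart.

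After Ang II, all 6 basophil and mast cell genes rose in T cell preparations of WT mice. The rise was 2.32-fold for Gata2, between 2.89-fold and 3.22-fold for Cpa3, Ms4a2 and Fcer1a, 5.77-fold for Mcpt8 and 6.49-fold for Prss34. In miR-214-/- mice none of the 6 passed the test. A gene was called when its adjusted p in edgeR's quasi-likelihood test was under 0.05 and its log2 fold change was over 1 or under -1. Of 16012 genes tested in WT, 7.01% were called and higher after Ang II, which is the background for the 6 of 6. Each of the 6 had 3 Ang II libraries above all 3 sham libraries, as had 19.1% of all genes tested. Their median log2 fold change was 1.68, and that of all genes tested was -0.02. DESeq2, the study's own tool, also called all 6, where it called 8.21% of 16810 genes in either direction.

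**Figure D1:**
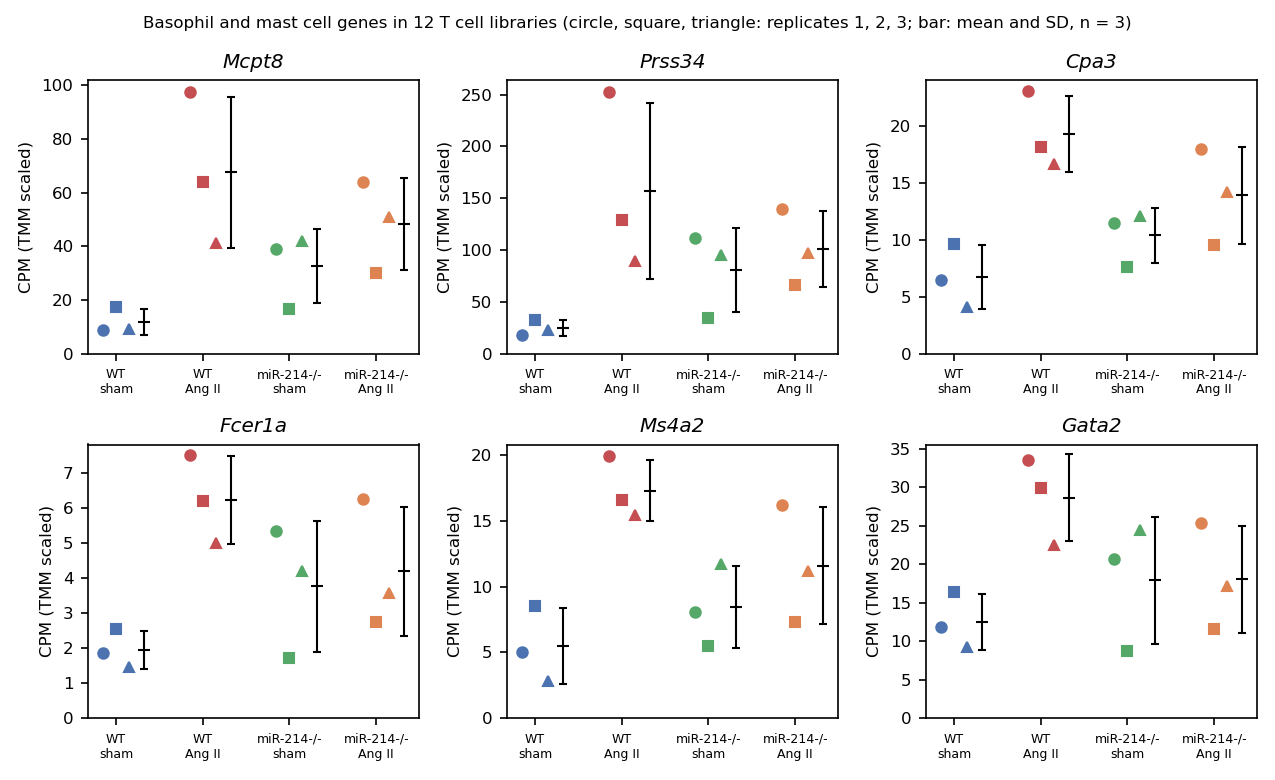
Expression of the 6 basophil and mast cell genes in each of the 12 libraries, in CPM, with 1 panel per gene. Points are mice, and bars give the mean and SD of 3 mice. All WT Ang II points lie above all WT sham points for each gene, and the miR-214-/- sham and Ang II points overlap for each gene.

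Prss34 encodes a tryptase-like serine protease of basophils and was the most abundant member, also per length of exon. It stood at 18.0, 33.1 and 22.6 CPM in the WT sham libraries and at 252.3, 129.4 and 89.4 CPM in the WT Ang II libraries. The lowest Ang II library was thus above the highest sham library by more than the whole range of the sham group. The log2 fold change was 2.70 (SE 0.42, 95% interval 1.72 to 3.68), with an adjusted p of 0.00833 in edgeR's quasi-likelihood test. In miR-214-/- mice Prss34 stood at 111.5, 34.7 and 95.6 CPM after sham and at 139.8, 66.1 and 97.1 CPM after Ang II. These groups overlapped, with a log2 fold change of 0.33 (95% interval -0.71 to 1.37, adjusted p = 0.779 by edgeR).

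Mcpt8 encodes mast cell protease 8, a granzyme-like serine protease that in the mouse is made mainly by basophils. Its WT sham libraries were at 8.81, 17.6 and 9.11 CPM and its WT Ang II libraries at 97.4, 63.9 and 41.3 CPM. As for Prss34, the groups lay well apart, and the 3 Ang II mice differed among themselves more than the 3 sham mice did. The log2 fold change was 2.53 (SE 0.39, 95% interval 1.60 to 3.45, adjusted p = 0.0084 by edgeR), which ranked 300 among the 16012 genes tested by size. The miR-214-/- values were 39.0, 16.8 and 41.9 CPM after sham and 63.8, 29.9 and 51.1 CPM after Ang II. They overlapped between the treatments, with a log2 fold change of 0.57 (95% interval -0.35 to 1.5, adjusted p = 0.571 by edgeR).

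Cpa3 encodes carboxypeptidase A3, an enzyme that trims peptides from their C-terminal end and is stored in granules of both mast cells and basophils. WT sham mice had 6.50, 9.68 and 4.10 CPM, and WT Ang II mice had 23.1, 18.1 and 16.7 CPM. No library of the sham group reached the Ang II group, and the log2 fold change was 1.53 (SE 0.31, 95% interval 0.80 to 2.27, adjusted p = 0.0191 by edgeR). After sham, miR-214-/- mice had 11.5, 7.67 and 12.1 CPM, and after Ang II they had 18.0, 9.55 and 14.2 CPM. The difference of 0.42 on the log2 scale had a 95% interval from -0.24 to 1.08 (adjusted p = 0.559 by edgeR).

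Fcer1a encodes the alpha subunit of the IgE receptor, the chain that binds IgE and that distinguishes the receptor from others sharing its signalling chain. It was the member with the fewest counts, between 32 and 214 per library. Levels in WT were 1.88, 2.54 and 1.46 CPM after sham and 7.52, 6.20 and 5.0 CPM after Ang II. The groups did not overlap, and the log2 fold change was 1.69 (SE 0.27, 95% interval 1.05 to 2.33, adjusted p = 0.00944 by edgeR). Levels in miR-214-/- were 5.36, 1.72 and 4.22 CPM after sham and 6.28, 2.75 and 3.58 CPM after Ang II, and the groups overlapped over most of their range. Its log2 fold change of 0.16 had a 95% interval from -0.95 to 1.27 (adjusted p = 0.911 by edgeR).

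Ms4a2 encodes the beta subunit, a membrane-spanning chain that amplifies signalling of the same receptor. It was measured at 5.06, 8.53 and 2.82 CPM in WT sham and at 19.9, 16.5 and 15.4 CPM in WT Ang II. All Ang II libraries were above all sham libraries, with a log2 fold change of 1.68 (SE 0.37, 95% interval 0.80 to 2.56, adjusted p = 0.0252 by edgeR). In miR-214-/- the values were 8.10, 5.53 and 11.7 CPM after sham and 16.2, 7.34 and 11.2 CPM after Ang II. The groups overlapped, and the log2 fold change was 0.46 (95% interval -0.40 to 1.32, adjusted p = 0.627 by edgeR).

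Gata2 encodes a zinc finger transcription factor of haematopoietic stem cells, progenitors, basophils, mast cells and megakaryocytes, so it is the least specific of the 6. The 3 WT sham libraries had 11.9, 16.5 and 9.24 CPM and the 3 WT Ang II libraries had 33.5, 30.0 and 22.5 CPM. Again the groups did not overlap, and the log2 fold change was 1.21 (SE 0.24, 95% interval 0.64 to 1.78, adjusted p = 0.0181 by edgeR). In the 3 miR-214-/- sham libraries it had 20.7, 8.69 and 24.4 CPM, and in the 3 miR-214-/- Ang II libraries 25.4, 11.6 and 17.2 CPM. On the log2 scale the difference was 0.01 (95% interval -0.98 to 1.01, adjusted p = 0.991 by edgeR).

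Across the 4 groups the order of mean CPM was the same for each member, with WT sham lowest, then miR-214-/- sham, miR-214-/- Ang II and WT Ang II. The last 3 groups in this order overlapped with their neighbours in every member, and WT sham lay apart from miR-214-/- sham for Prss34 alone. On the scale of CPM per kb of exon, which allows levels to be compared between genes, Prss34 was highest at 20.1 ± 6.35 in WT sham and 129 ± 69.6 in WT Ang II (mean ± SD, n = 3). Mcpt8 followed at 11.9 ± 5.01 and 67.7 ± 28.3, and Cpa3 at 4.46 ± 1.85 and 12.7 ± 2.22. Both receptor subunits and the transcription factor formed a lower tier. Gata2 had 2.32 ± 0.677 and 5.31 ± 1.04 CPM per kb, Fcer1a 1.96 ± 0.547 and 6.25 ± 1.26, and Ms4a2 1.95 ± 1.02 and 6.15 ± 0.834, and these 3 genes did not differ beyond their spread within either group.

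**Figure D2:**
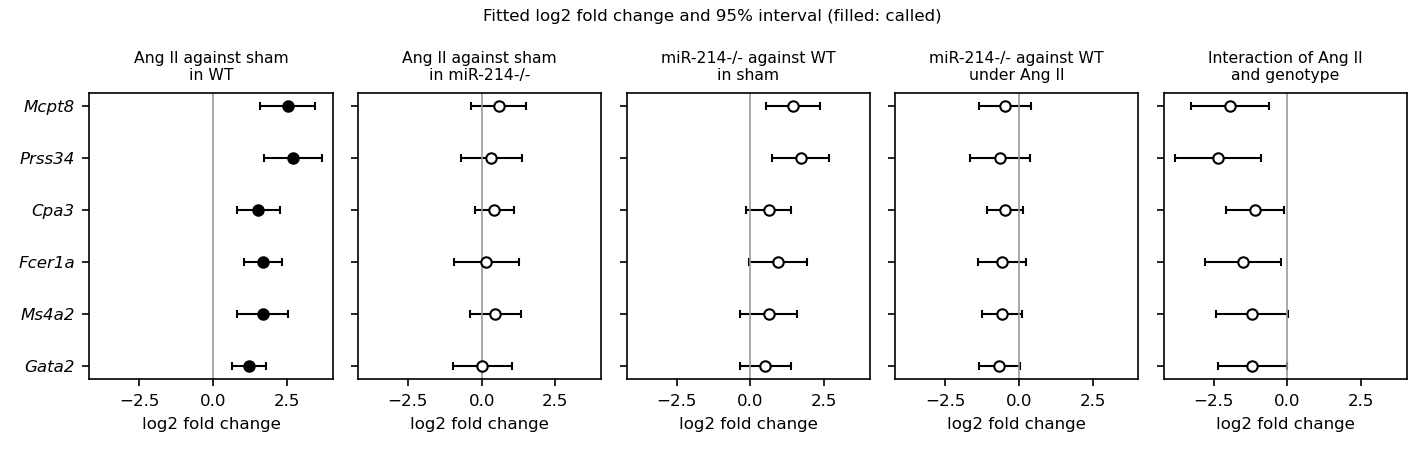
Log2 fold changes of the 6 genes in the comparisons of the design, with points filled where called, bars for 95% intervals from edgeR and a line at 0. The WT intervals lie above 0 for every gene, from 0.64 for the lower bound of Gata2 upward, and the miR-214-/- intervals span 0 for every gene.

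In miR-214-/- mice edgeR called 0% of 15937 genes after Ang II, and none of the 6 members had an unadjusted p under 0.05, as 1939 of all genes had. DESeq2 called 0.391% of 13034 genes in this comparison and none of the members. The members' log2 fold changes were between 0.01 and 0.57, with a median of 0.38, and all intervals included 0. The direction rested on single libraries for 3 members. Without sham replicate 2, Prss34 was at -0.032, Fcer1a at -0.18 and Gata2 at -0.32, and without Ang II replicate 1, Fcer1a was at -0.26 and Gata2 at -0.32. The median of the 6 was 0.10 without sham replicate 2, 0.07 without Ang II replicate 1 and 0.59 without Ang II replicate 2. The upper bounds, between 1.01 and 1.5, lay above a log2 fold change of 1 for each of the 6, so these libraries leave room for a rise past that size.

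Sham-treated mice of the 2 genotypes were compared to see whether the genes differed without Ang II. All 6 fitted values were higher in miR-214-/- than in WT, by 0.51 to 1.71 on the log2 scale (median 0.78), and no member was called. Prss34 had the largest difference, 1.71 (SE 0.42, 95% interval 0.74 to 2.68), with an unadjusted p of 0.00382 and an adjusted p of 0.701 by edgeR. Its lowest miR-214-/- sham library, at 34.7 CPM, was just above its highest WT sham library, at 33.1 CPM, which put its groups apart as were those of 5.39% of all genes tested in that direction. For Mcpt8 the difference was 1.45 (SE 0.39, 95% interval 0.54 to 2.37, unadjusted p = 0.00668 and adjusted p = 0.701 by edgeR). It was 0.94 for Fcer1a, 0.62 for both Cpa3 and Ms4a2, and 0.51 for Gata2, each with an interval that included 0. Of 15913 genes tested in sham, edgeR called 0.0189%, and DESeq2 called 0.289% of 15595 genes and none of the members. Replicate 2 of the miR-214-/- sham group was the lowest of its group for each member. Without it, Prss34 was called, at 2.08 on the log2 scale with an adjusted p of 0.0455, and the other 5 were not, in a fit that called 13 genes in all.

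Under Ang II the fitted level of each of the 6 genes lay below WT in miR-214-/- mice, with log2 differences from -0.66 for Gata2 to -0.47 for Cpa3 (median -0.57). None was called or had an unadjusted p under 0.05, and the groups overlapped for each of the 6. The difference of Gata2, the largest, had a 95% interval from -1.37 to 0.04 with an adjusted p of 0.569 by edgeR. That of Prss34 was -0.63 (95% interval -1.64 to 0.38, adjusted p = 0.610 by edgeR). With 1 library left out it was between -0.95, without miR-214-/- Ang II replicate 1, and -0.10, without WT Ang II replicate 1. The same libraries gave -0.74 and -0.11 for Mcpt8. The median of the 6 was between -0.92, without miR-214-/- Ang II replicate 1, and -0.33, without miR-214-/- Ang II replicate 2, and no member was called in any of these fits. In this comparison edgeR called 0% of 16215 genes, and DESeq2 called 0.143% of 14722 genes and none of the members. It shares its libraries with the comparisons of Ang II against sham and is not independent of them.

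The interaction term asked whether the response to Ang II differed between the genotypes, which a call in WT and none in miR-214-/- does not show by itself. It was negative for all 6 members, between -2.35 and -1.10 on the log2 scale with a median of -1.36, so each fitted response was smaller in miR-214-/-. None passed the adjustment over 16770 genes, of which edgeR called 0.00596%, and 5 of 6 had an unadjusted p under 0.05, as 2483 of all genes had. That background rested on 1 library, since 919 genes were called without miR-214-/- Ang II replicate 1, though still none of the members. Prss34 had the largest term, -2.35 (SE 0.67, 95% interval -3.82 to -0.89, unadjusted p = 0.00466 and adjusted p = 0.216 by edgeR). DESeq2 put it at -2.38 with an adjusted p of 0.0438, the only member it called where it called 3.22% of 13771 genes. Mcpt8 had -1.94 (SE 0.60, 95% interval -3.27 to -0.61, unadjusted p = 0.00811 and adjusted p = 0.228 by edgeR). Fcer1a followed at -1.51, Ms4a2 at -1.20, Gata2 at -1.19 and Cpa3 at -1.10, with adjusted p between 0.281 and 0.349 by edgeR.

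Single libraries moved the WT calls. Mcpt8, Prss34 and Fcer1a were called with any 1 of the 6 WT libraries left out. Cpa3, Ms4a2 and Gata2 were not called without WT sham replicate 1 (adjusted p = 0.0741, 0.0897 and 0.0718 by edgeR), which left 3 of 6. Without WT sham replicate 3, Gata2 was not called (adjusted p = 0.0514 by edgeR), and without WT Ang II replicate 3, Cpa3 and Ms4a2 were not (adjusted p = 0.0518 and 0.0674 by edgeR), which left 5 and 4 of 6. Their fold changes stayed over 2-fold in each case, with lowest log2 values of 1.27 for Cpa3, 1.36 for Ms4a2 and 1.03 for Gata2.

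The members moved together from mouse to mouse. In WT Ang II, replicate 1 was the highest and replicate 3 the lowest library for each of the 6 genes. In both miR-214-/- groups replicate 2 was the lowest for each, and after Ang II replicate 1 was the highest. Over the 12 libraries Pearson's r of log2 CPM was between 0.86, for Prss34 with Gata2, and 0.99, for Cpa3 with Ms4a2 and for Mcpt8 with Prss34. These values describe 12 libraries that share the treatment and genotype groups and their depth, and no test was made of them.

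Summed over the 6 members, WT sham libraries held 49.3 to 87.9 CPM and WT Ang II libraries 190.3 to 433.8 CPM. The sums were 75.1 to 196.1 CPM in miR-214-/- sham and 127.3 to 269.6 CPM in miR-214-/- Ang II. The spread of the miR-214-/- sham group was that of 1 mouse, since its other 2 libraries had 190.0 and 196.1 CPM.

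**Figure D3:**
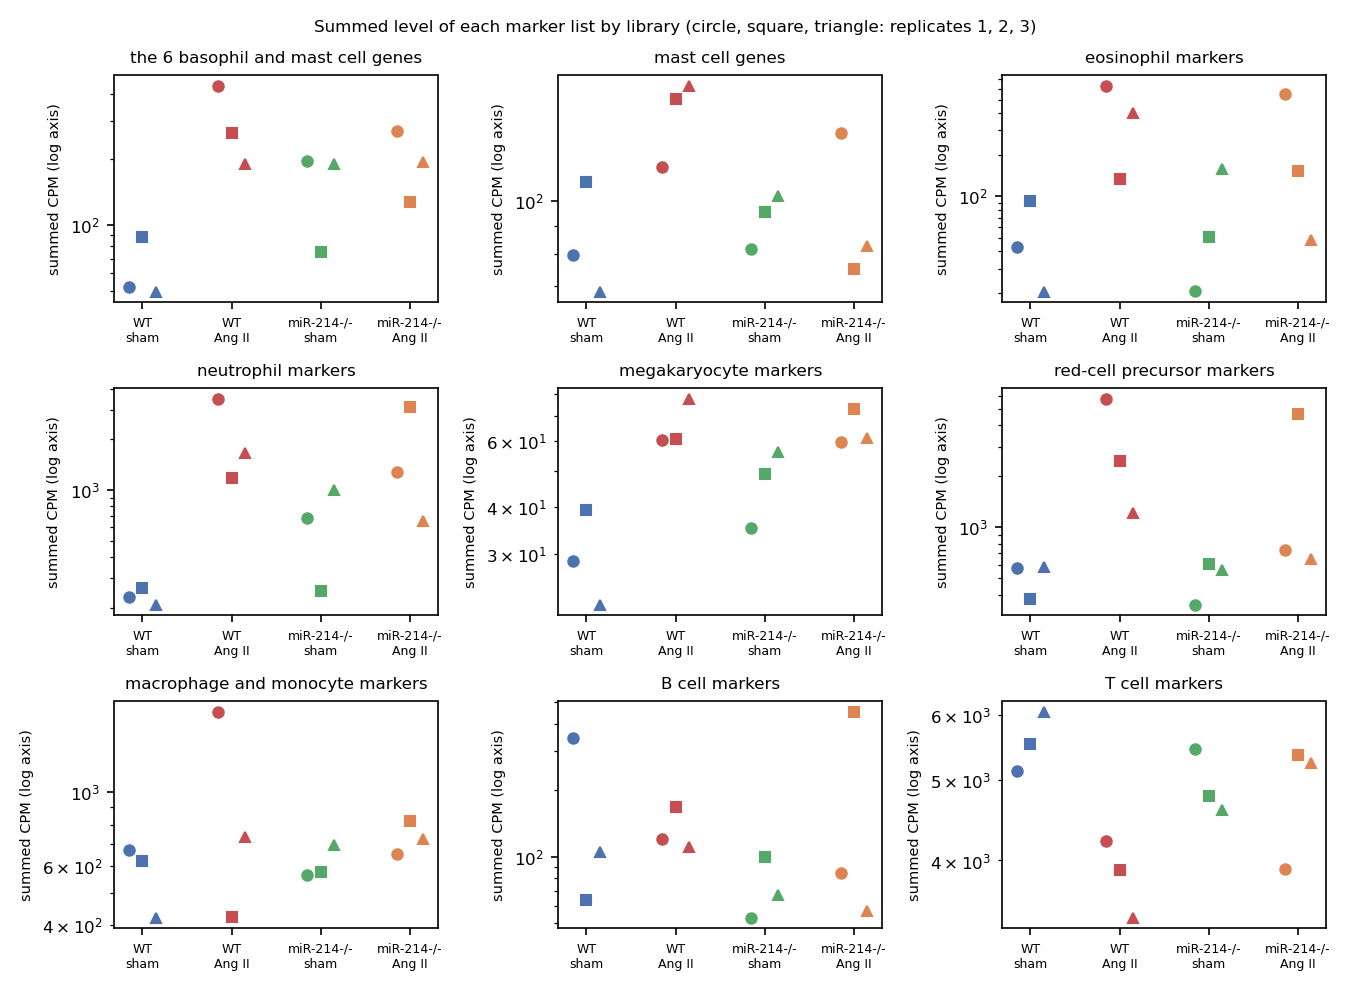
Summed CPM of each marker list in the 12 libraries on a log axis, with 1 panel per list and points for mice. The sum of the 6 members is between 49.3 and 87.9 CPM in WT sham and between 190.3 and 433.8 CPM in WT Ang II, and the neutrophil sum moves from 208 to 263 CPM up to 1178 to 3479 CPM.

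Ratios of counts within a library do not depend on depth and show which members moved by unequal amounts. Mcpt8 to Prss34 stayed within a narrow band, at 0.403 to 0.532 in WT sham, 0.386 to 0.494 in WT Ang II, 0.350 to 0.483 in miR-214-/- sham and 0.453 to 0.526 in miR-214-/- Ang II. The 4 groups overlapped, so both basophil proteases kept their proportion while each varied several-fold. Mcpt8 to Gata2 did not, with 0.743 to 1.07 in WT sham and 1.84 to 2.91 in WT Ang II. In miR-214-/- the same ratio was 1.71 to 1.93 after sham and 2.51 to 2.98 after Ang II. WT sham therefore had less Mcpt8 per Gata2 than any library of the other groups. The ratio of Mcpt8 to Cpa3, an enzyme common to both cell types, was 1.36 to 2.22 in WT sham and 2.48 to 4.21 in WT Ang II, and 2.19 to 3.46 and 3.13 to 3.60 in miR-214-/- sham and Ang II. Fcer1a to Ms4a2, the ratio of the alpha to the beta subunit, was 0.298 to 0.516, 0.324 to 0.377, 0.311 to 0.662 and 0.319 to 0.387 in the same order of groups, all overlapping. These ratios are descriptions and were not tested.

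**Figure D4:**
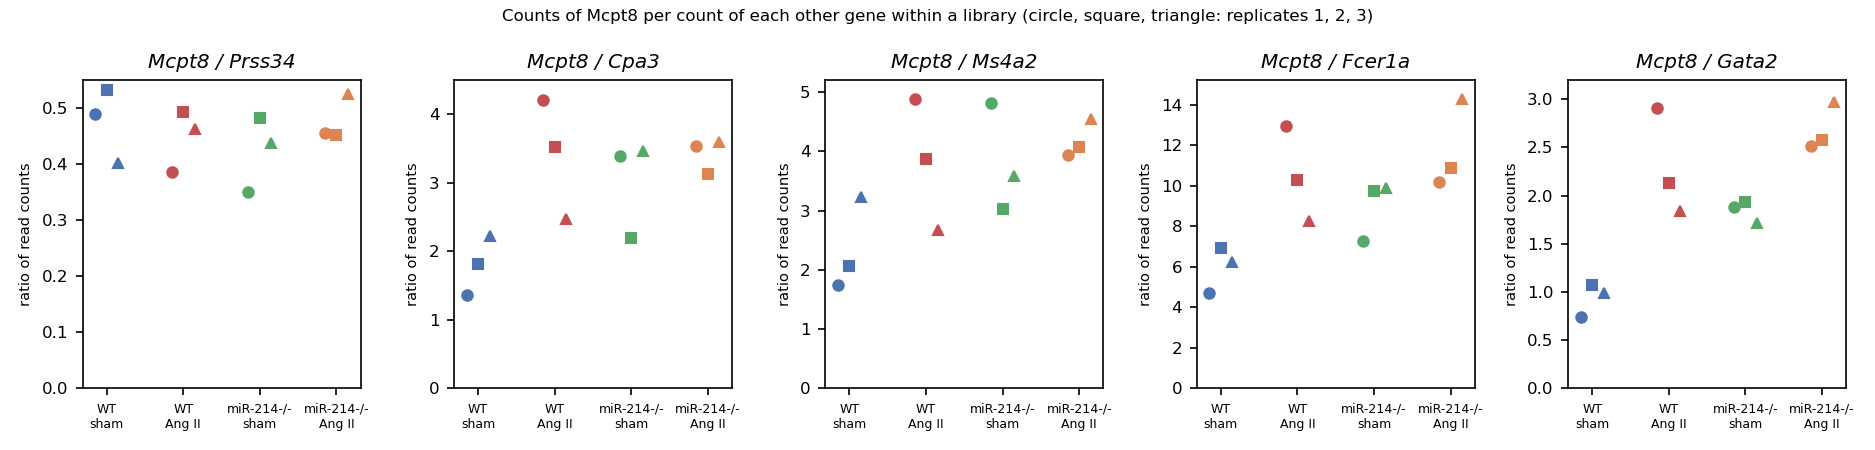
Ratios of counts between members in each library, with counts of Mcpt8 divided by those of each other protease, receptor subunit or transcription factor on the y axis, 1 panel per ratio and points for mice. Mcpt8 to Prss34 lies between 0.350 and 0.532 in all 12 libraries, whereas Mcpt8 to Gata2 is at most 1.07 in WT sham and at least 1.71 in the other groups.

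A list of 16 other basophil genes was read beside the members, and 14 of them were tested in WT. Of these, 6 rose, none fell, and the median log2 fold change was 0.85. Hdc, which encodes the enzyme that makes histamine, went from 7.52 ± 3.36 to 25.9 ± 2.23 CPM in WT (mean ± SD, n = 3), a log2 fold change of 1.80 with an adjusted p of 0.0101 by edgeR. In miR-214-/- it had 14.5 ± 7.12 CPM after sham and 15.5 ± 6.91 CPM after Ang II. Alox5, the lipoxygenase that starts leukotriene synthesis and is also made by other myeloid cells, rose by 2.39 on the log2 scale (adjusted p = 0.0124 by edgeR). Il1rl1, the receptor for IL-33, rose by 1.65 (adjusted p = 0.0115), and Cebpa, a transcription factor of granulocyte development, by 1.07 (adjusted p = 0.0081). The other genes that rose were Csf2rb, the shared beta chain of the receptors for IL-3 and GM-CSF, and the cytokine Il6, the latter with at most 38 counts per library.

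Some genes that mark basophils gave no such call. Cd200r3, an activating receptor of basophils and mast cells, had 5.24 ± 2.40 CPM in WT sham and 8.26 ± 1.48 CPM in WT Ang II, a log2 fold change of 0.67 (SE 0.35, adjusted p = 0.216 by edgeR). Il4, which T cells make as well, had 1.46 ± 0.810 and 1.74 ± 0.904 CPM, with a log2 fold change of 0.27 (SE 0.49, adjusted p = 0.725 by edgeR). Il3ra, the alpha chain of the IL-3 receptor, had 16.6 ± 6.40 CPM in WT sham and 15.8 ± 6.13 CPM in WT Ang II. Of the 14 genes tested, 10 had a positive and 4 a negative log2 fold change. The lowest in the list was -0.34, that of the integrin subunit gene Itga2. Il13 and Ltc4s were too low to be tested, with at most 26 and 12 counts per library. In the other comparisons edgeR called none of the list, and DESeq2 called 2 of its genes for the interaction.

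Of 14 listed genes of mast cells, 7 were tested in WT, and 1 of them, Kit, was called. Kit encodes the receptor for stem cell factor on mast cells and on haematopoietic progenitors, and went from 23.1 ± 9.99 to 72.6 ± 17.8 CPM, a log2 fold change of 1.67 (adjusted p = 0.0162 by edgeR). In miR-214-/- mice Kit had 32.9 ± 8.47 CPM after sham and 37.8 ± 27.5 CPM after Ang II. Slc18a2, the transporter that loads histamine into granules and is also used by basophils, had a log2 fold change of 0.63 with an adjusted p of 0.0456 by edgeR, below the size needed for a call.

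Proteases confined to mast cells differed in level. Per kb of exon, Cma1 and Mcpt4 had 4.19 ± 2.13 and 3.80 ± 3.20 CPM in WT sham, near Cpa3 at 4.46 ± 1.85 (mean ± SD, n = 3). In WT Ang II they had 2.71 ± 1.56 and 3.39 ± 1.84 CPM per kb, and Cpa3 had 12.7 ± 2.22. Cma1, a chymase, had 4.57 ± 2.32 CPM in WT sham and 2.96 ± 1.70 CPM in WT Ang II, a log2 fold change of -0.61 (SE 0.51, adjusted p = 0.431 by edgeR). Tpsb2, a tryptase, had 1.66 ± 1.82 and 2.34 ± 1.91 CPM, with 94 counts in WT sham replicate 2 and 7 in the lowest WT sham library (log2 fold change 0.50, SE 0.90, adjusted p = 0.727 by edgeR). The other tryptase gene Tpsab1 had at most 31 counts in a library and 0 in all miR-214-/- sham libraries, and Mcpt9 had at most 1. The median over the 7 tested genes was 0.23, and Ndst2, a heparin-synthesis enzyme, stood at this value (adjusted p = 0.089 by edgeR). The summed level of the list was 68.4 to 108 CPM in WT sham and 115 to 162 CPM in WT Ang II. Most of this difference was that of Kit, while mean levels of Cma1 and Mcpt4 were lower in WT Ang II.

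**Figure D5:**
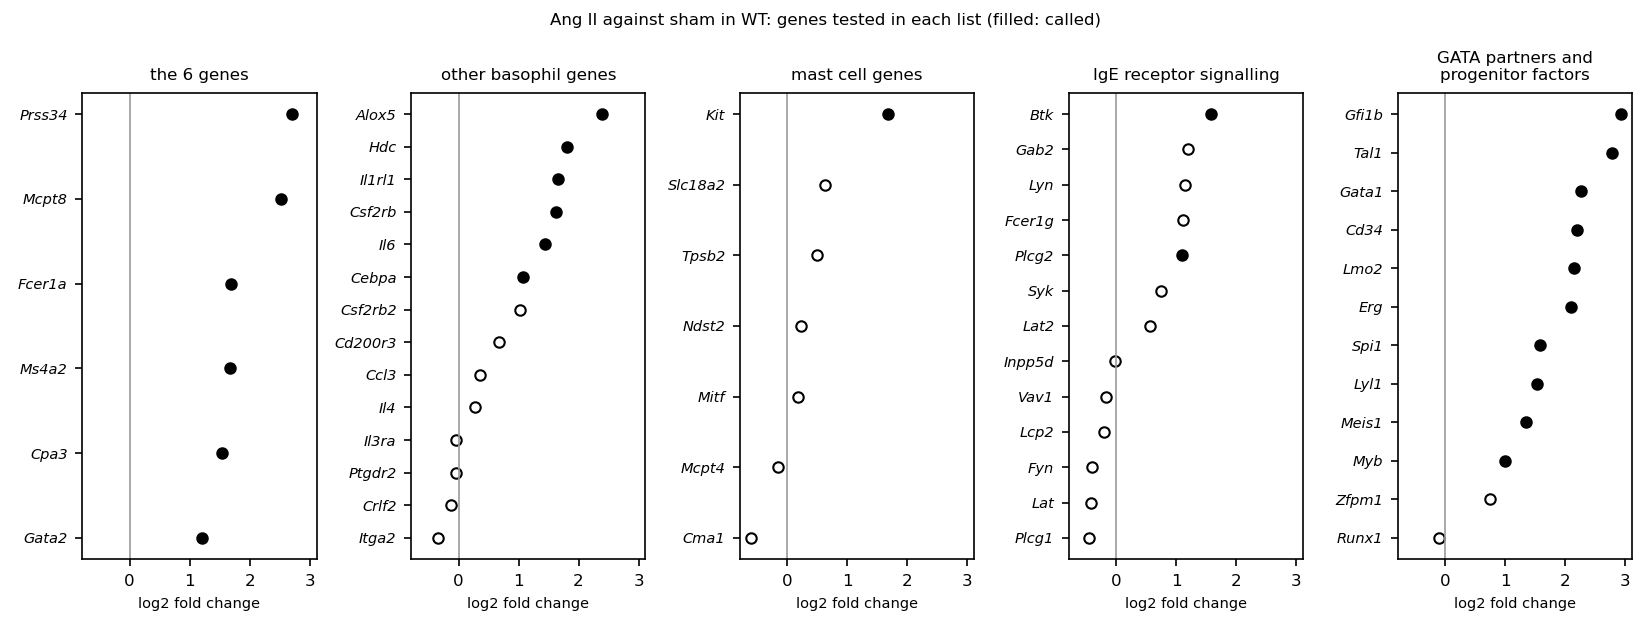
Log2 fold changes of Ang II against sham in WT for the genes of each list, with 1 panel per list, points for the genes tested, filled where called, and a line at 0. The 6 members lie between 1.21 and 2.70, other basophil genes between -0.34 and 2.39, mast cell genes between -0.61 and 1.67, IgE receptor signalling between -0.45 and 1.57, and GATA partners and progenitor factors between -0.10 and 2.94.

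Components that act below the IgE receptor were also read in WT. Of 13 tested, 2 were called higher and none lower, with a median log2 fold change of 0.56. Of all genes tested, 7.01% were called and higher. Btk, a kinase of B cells and myeloid cells, had a log2 fold change of 1.57 (adjusted p = 0.00836 by edgeR), and the other call was Plcg2, its phospholipase substrate. Fcer1g, the gamma chain that the IgE receptor shares with other Fc receptors, had 20.3 ± 7.17 CPM in WT sham and 43.3 ± 28.5 CPM in WT Ang II (log2 fold change 1.12, SE 0.48, adjusted p = 0.144 by edgeR). The kinases Lyn and Syk had 1.14 and 0.74 (adjusted p = 0.101 and 0.212 by edgeR). Plcg1, the phospholipase that T cells use, had -0.45 (SE 0.07, adjusted p = 0.0093 by edgeR), and Fyn, another kinase of T cells, -0.40 (SE 0.09, adjusted p = 0.0236 by edgeR), both below the size of a call. Most of these genes are also expressed in T cells, B cells or other myeloid cells.

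GATA factors act with partners, and 10 of 12 listed partners and progenitor factors rose in WT, with a median log2 fold change of 1.84. Lmo2, a bridging protein of the GATA complex, went from 18.3 ± 1.91 to 80.1 ± 17.4 CPM, a log2 fold change of 2.15 (adjusted p = 0.00116 by edgeR). Tal1, a helix-loop-helix partner that binds E-box letters, and Gata1, the sister factor of red cells, megakaryocytes and mast cells, rose by 2.77 and 2.27 (adjusted p = 0.0129 and 0.0118 by edgeR). Cd34, a surface protein of progenitors, rose by 2.19, Erg by 2.09 and Lyl1 by 1.53. These genes serve red-cell and megakaryocyte precursors as well as basophils and mast cells. The log2 fold changes of Zfpm1 and Runx1 did not pass, and that of Runx1 was -0.10.

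Markers of other blood cells moved with the members in WT, and their part in the members' rise was not tested. Of 12 neutrophil and promyelocyte markers, 12 rose, between 3.00 and 3.71 on the log2 scale, and their sum was 208 to 263 CPM in WT sham and 1178 to 3479 CPM in WT Ang II. Of 9 eosinophil markers, 6 rose, with a median of 2.84 and sums of 20.4 to 92.3 CPM and 134 to 629 CPM. Red-cell precursor markers rose for 5 of 10, with a median of 2.67 and sums of 378 to 579 CPM and 1210 to 5748 CPM. Megakaryocyte markers were called for 4 of 8, with a median of 1.29 and sums of 22.0 to 39.4 CPM and 60.5 to 77.6 CPM. Against these, 1 of 10 macrophage and monocyte markers (Ccr2), none of 8 B cell markers and none of 12 T cell markers rose, and 1 of 6 tested NK cell markers (Gzma) fell. No gene of the neutrophil, red-cell precursor or B cell lists was at 0 in any library. In the other 4 comparisons edgeR called no gene of any list. Higher values in miR-214-/- sham and a negative interaction were not particular to the members. In sham 12 of 12 neutrophil markers (median 1.49) and 12 of 12 GATA partners and progenitor factors (median 0.51) were higher. The interaction was negative for 12 and 11 of these (medians -1.77 and -1.28). B, NK and T cell markers went the other way in sham (medians -1.35, -0.24 and -0.16). Their interaction medians were 2.01, 0.56 and 0.53. DESeq2 called, for the interaction, 1 gene each of the GATA, red-cell precursor, neutrophil, macrophage and T cell lists beside the members and other basophil genes. It also called 2 neutrophil markers and 1 red-cell precursor marker in sham, 1 neutrophil marker in miR-214-/- after Ang II and 1 mast cell gene between the genotypes under Ang II.

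Individual libraries did not rank alike in all of these lists. The miR-214-/- Ang II library of replicate 2 had the second highest red-cell precursor sum, 4701 CPM, and the second highest neutrophil sum, 3122 CPM, of the 12 libraries. Its sum of the members, 127.3 CPM, ranked eighth. It also had the highest B cell sum, 452 CPM. The largest parts of its red-cell precursor sum were the globin genes Hbb-bs, at 1977 CPM, and Hba-a1, at 1325 CPM. Klf1 and Epor of the same list were highest within miR-214-/- Ang II in replicate 1, at 97.6 and 34.2 CPM. The genes of the neutrophil list were not alike. Over the 12 libraries, Pearson's r of log2 CPM with the mean z-score of the members was 0.90 to 0.93 for Elane, Mpo, Prtn3 and Ctsg. For the rest of the list it was 0.65 to 0.79, and no test was made of these values. In miR-214-/- mice the neutrophil sum was 251 to 1005 CPM after sham and 652 to 3122 CPM after Ang II, and the eosinophil sum was 20.6 to 156 CPM and 48.4 to 553 CPM.

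Genes next to the members on their chromosomes were read to see whether the rise was shared by position. Mcpt8 lies in a cluster of protease genes, 19852 bases from Mcpt4, a mast cell chymase, and 14607 bases from Ctsg, the cathepsin G of neutrophils. Mcpt4 had 17 to 208 counts per library and a log2 fold change of -0.15 in WT (adjusted p = 0.888 by edgeR), whereas Ctsg had 90 to 1372 counts and rose by 3.09 (adjusted p = 0.0013). Ms4a2 lies 5776 bases from Ms4a3, a gene of granulocyte precursors that rose by 3.44 (adjusted p = 0.00366 by edgeR), and 10673 bases from Ms4a6d, at 0.93 (adjusted p = 0.0952). Beside Prss34, the protease gene Prss28 had at most 11 counts per library. Cpa3 had Gyg at 0.66 (adjusted p = 0.0177) and Cpb1 at 0.81 (adjusted p = 0.352), neither of them called. Next to Gata2, Rpn1 had 0.49 (adjusted p = 0.0343), and Dnajb8 had at most 5 counts. Fcer1a sits between olfactory receptor genes with at most 1 count. Of the neighbours named here, Ctsg and Ms4a3 were called, and both are genes of granulocyte precursors.

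The 10 genes whose pattern was most like the members were found by Pearson's r of log2 CPM with the mean z-score of the 6, over 12 libraries and 13758 genes. Cd34 came first with r = 0.96, followed by Mcf2l, a guanine nucleotide exchange factor, with 0.95. Cebpa, from the list of other basophil genes, and Angpt1, the angiopoietin that binds the receptor Tie2, both also had 0.95. Adgrg1, Ctbp2, Stx3, Tmem150b, Ccl9 and the unnamed transcript Gm11505 had between 0.93 and 0.94. In WT their log2 fold changes were between 0.99, for Angpt1, and 2.67, for Gm11505, each with an adjusted p under 0.05. For Cd34 the values were 2.19 in WT and 0.55 in miR-214-/-, and for Ccl9, a chemokine, 1.79 and 0.43. Since the groups are the same 12 libraries, these values describe likeness and are no test of it.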

How the data were processed

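RNASeq was measured in 12 libraries of splenic T cells. The authors trimmed reads with Trimmomatic, mapped them to GRCm38 with STAR and counted unique exonic reads per gene with featureCounts of Subread 1.5.2, and the deposited values are raw counts per gene, 1 column per mouse, without normalization. The annotation release and the strand setting of the counting are not given in the sources used here. Of 49315 identifiers, 49056 matched the GENCODE annotation of GRCm38, and 259, with 0.0245% of the counts, stayed in the tests. No column was left out, and 0 of the 12 pairs of libraries within a group were identical. Precision of low counts is limited by these depths.

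Counts were fitted with edgeR 4.0.16 in R 4.3.3 (filterByExpr, TMM, quasi-likelihood test, Benjamini-Hochberg over all genes tested) for 5 comparisons, 4 between pairs of groups on their own libraries and the interaction over all 12. Intervals are 95% intervals from the fitted SE. Alternatives were DESeq2 1.42.0, the study's tool, and those given in the closing section. Log2 CPM used a prior count of 2. The fits were tested on simulated data, and figures were drawn in Python 3.11.15 with matplotlib 3.10.9. The members and gene lists were chosen with earlier results of these data known, so that nothing in a list's count is independent support. Named genes were the members, the first 3 genes of each list and up to 3 more with the smallest p in WT, the 10 genes most like the members and the nearest protein-coding neighbours, of which 1 is not reported here. Itga2, Il3ra, Mcpt4, Mcpt9, Csf2rb, Il6, Il13, Ltc4s, Plcg2, Zfpm1, Runx1, Klf1 and Epor were named after their values were seen. Of the lists of other cell types, Elane, Mpo, Prtn3, Ccr2, Gzma, Hbb-bs and Hba-a1 were named under this rule, and Ctsg also as a neighbour. The other genes were given by counts, sums and ranges.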

Additional observations from a re-analysis of the deposited data

How the results depend on the processing

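Apart from settings that leave out a library, all 6 members were called in WT under DESeq2, scaling with RLE or with library size alone, dropping or tightening the filter on low counts, the adjusted-deviance fit, the robust fit, a call by adjusted p alone, 1 fit over all 4 groups and the replicate block. The number of members called was between 3 and 6 in WT and between 0 and 1 in sham with 1 library left out. It was 0 in every such setting for Ang II against sham in miR-214-/-, for the genotypes under Ang II and for the interaction. DESeq2 called 1 member, Prss34, for the interaction, and edgeR called 0. Prss34, Fcer1a and Gata2 changed sign in miR-214-/- after Ang II with 1 library left out, between -0.032 and 0.63 for Prss34, -0.26 and 0.49 for Fcer1a, and -0.32 and 0.30 for Gata2, none past the threshold. Over all genes, the calls by edgeR and DESeq2 were 0 and 51 in miR-214-/-, 3 and 45 in sham and 0 and 21 under Ang II. For the interaction, called by adjusted p alone, they were 1 and 444. The cause of these differences between the tools was not tested. With no filter on low counts the calls were 3 in miR-214-/- and 9 in sham, and with adjusted p alone they were 3009 in WT against 1169. With 1 library left out they were 564 to 1338 in WT, and for the interaction 919 without miR-214-/- Ang II replicate 1 and at most 3 otherwise. Replicate numbers did not pair the mice, with correlations of same-numbered deviations between -0.56 and 0.20. The replicate block left the number of members called at 6 in WT and 0 in the other comparisons, and gave 966 calls over all genes in WT against 1169 without it.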
